A study of Mus musculus with 10 samples.

Results

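The major histocompatibility complex (MHC, called H2 in the mouse) is the stretch of chromosome 17 that holds the H2 genes. It was taken here as every array probe on chromosome 17 that starts between 33800000 and 38300000 (mm9 coordinates, as the files give them). The interval held 407 of the 170305 probes measured, or of the 161460 on autosomes. A probe's value is the log2 ratio of an animal's DNA to a pooled reference, less the median of that array's autosomal probes, so a value of 0 is the level of a typical autosomal probe and a value above 0 is more signal from the animal than from the pool.

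Classical class I genes (H2-K and H2-D) code for cell-surface molecules that show peptides from inside the cell to CD8+ T cells, and class II genes (H2-A and H2-E) for molecules that show peptides taken up from outside to CD4+ T cells. The class III genes between them include complement components and cytokines such as tumour necrosis factor, and the Q, T and M clusters beyond H2-D hold the nonclassical class I genes. Inbred strains carry different MHC haplotypes, which differ from each other in sequence and in the number of class I genes. An array ratio responds to the number of copies of a target and also to how well the target's sequence matches the probe, so the effects of copy number and of sequence on these ratios cannot be told apart. In RefSeq's gene table for GRCm38.p6, another build that is read here for gene order only, 50 H2 genes lie on chromosome 17, and 38 of them are listed as coding for protein. After H2-Q8, H2-D4, H2-Q9, H2-T18 and H2-K2, which stand first in it, that table runs from H2-K1 through the class II genes H2-Oa, H2-DMa, H2-Ob, H2-Ab1, H2-Aa and H2-Eb1 to H2-D1, then through other Q, T and M genes. Probes were not assigned to genes, because no gene names for them were at hand in the files.

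Liver DNA of 10 mice from the ZFLacZ transgenic line was hybridised to oligonucleotide arrays, 1 animal per array in Cy5, against a Cy3-labelled pool of equal parts of DNA from adult C57BL/6, SJL and DBA mice. The 5 ICSI-derived animals came from testis cells frozen for 14 years: ZFLacZ sperm was injected into oocytes described as DBA x C57BL/6 (intracytoplasmic sperm injection). The 5 naturally born animals are labelled as adult wild-type progeny of ZFLacZ, a line first made on SJL x C57BL/6. Whether each animal carried the transgene, and which promoter drives it, is not given in the sources used here. By their labels 3 animals in each group were male and 2 female, and ages beyond adult are not given in the sources used here. The DBA contribution through the oocytes is given for the ICSI-derived animals only, so in any difference between the groups the genetic background cannot be told apart from the injection and freezing.

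Of 3 slides, the first held ICSI-derived and naturally born replicates 1 and 2, the second replicates 3 and 4 of both groups, and the third replicates 5. Noise between neighbouring probes, as the scanner software reports it, was highest on the arrays of ICSI-derived replicate 4 (0.21), ICSI-derived replicate 1 (0.20) and naturally born replicate 2 (0.17), against 0.14 to 0.15 on the other 7. On chromosome X, 5 of the 6 animals labelled male were at -0.61 to -0.55 and the sixth, the array labelled naturally born replicate 3, was at -0.033. On chromosome Y it was at -0.0072, where the other 5 were at 0.75 to 0.82. The 4 animals labelled female were at 0.26 to 0.28 on chromosome X and -1.57 to -1.42 on chromosome Y, so that array lay between the sexes on both. Whether it holds the DNA of 1 animal was not tested, and "naturally born replicate 3" means the array so labelled throughout. Without that array the counts of MHC probes called between the groups, of probes with a range of 1 or more and of segments were 0, 21 and 4, the same as with it. The range and segment counts could not change. That array held 0 of the segments and was the highest animal at 0 and the lowest at 0 of the 21 probes.

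The 407 probes lay a median of 9.52 kb apart, from 0.375 to 87.2 kb between starts. In both channels 405 of them were well above background on every array, and none was saturated. At the left border, the last probe outside (33795669) averaged -0.030 ± 0.074 (SD, n = 10) and the first inside (33806417) -0.20 ± 0.097. At the right border, the last inside (38293447) averaged -0.12 ± 0.057 and the first outside (38309004) -0.053 ± 0.13 (SD, n = 10 each). Both outermost MHC probes were below the pool in all 10 animals.

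Single MHC probes set animals apart, mainly within the ICSI-derived group, in 7 of the 9 windows of 500 kb that make up the interval. The range of a probe, its highest animal minus its lowest, had a median of 0.38 over the MHC, against 0.33 over all autosomes and 0.33 over the rest of chromosome 17. A range of 1 or more was found at 21 MHC probes (5.16%), against 1.13% of autosomal probes and 100 of 6141 probes (1.63%) on the rest of chromosome 17. Within the ICSI-derived animals alone, 17 MHC probes (4.18%) reached this range, against 0.687% of autosomal probes. Within the naturally born animals 3 did (0.737%), against 0.481%. These shares are descriptions, without a test, because probes of 1 animal are not independent of each other. A minimum range of 0.5 gave 122 MHC probes (30%, against 15% of autosomal probes), and one of 1.5 gave 9 (2.21%, against 0.284%).

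**Figure D1:**
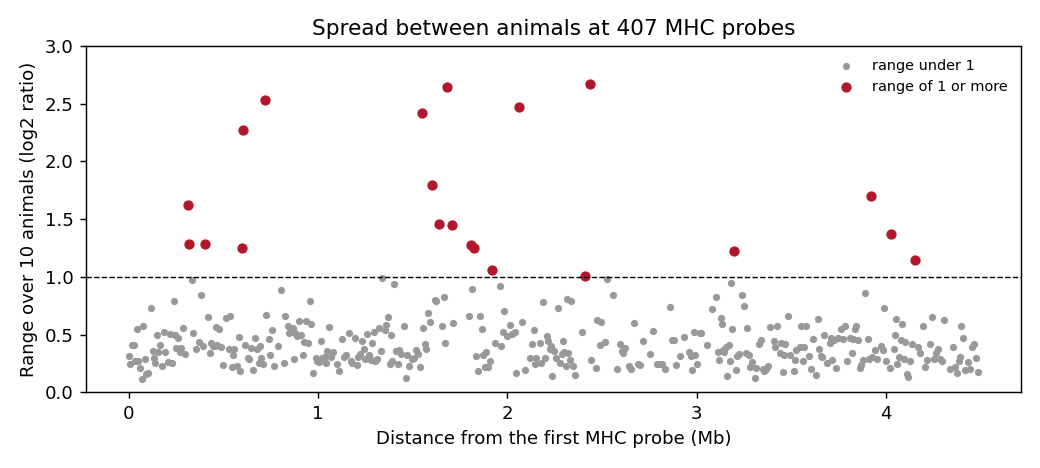
Range over the 10 animals (highest minus lowest log2 ratio, vertical axis) at each of the 407 MHC probes, by distance from the first MHC probe in Mb (horizontal axis). The 21 probes with a range of 1 or more (red) lie between 0.31 and 4.15 Mb among grey probes of smaller range.

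The 21 wide-range probes were spread over 3.84 Mb, from 34117148 to 37961002, and not gathered in 1 place. Windows of 500 kb from the left border held 3, 3, 0, 8, 3, 0, 1, 1 and 2 of them. The fourth window, 35300000 to 35799999, held the most, 8 among its 40 probes. For 13 of the 21, the nearest MHC probe on each side had a range under 1. These probes were chosen by their range over all animals, so the values that follow describe them and carry no test.

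The widest range, 2.67, was at the probe at 36245539 to 36245593. Its log2 ratios were -1.05, 0.60, 1.14, 0.54 and -1.37 in ICSI-derived replicates 1 to 5 and 1.17, 1.30, 1.02, 1.23 and 0.56 in naturally born replicates 1 to 5. The first and last ICSI-derived animals, replicates 1 and 5, were below the pool and the other 8 animals above it, so the groups overlapped. The group means were -0.027 ± 1.11 (SD, n = 5) for ICSI-derived and 1.05 ± 0.30 (SD, n = 5) for naturally born animals. The next probe, starting only 0.375 kb further on, had a range of 0.28.

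The same 2 animals stood apart at the probe at 35489973 to 35490032, in the fourth window. It measured -1.43, 0.53, 0.99, 0.59 and -1.53 in ICSI-derived replicates 1 to 5, against 0.99, 1.11, 0.72, 1.07 and 0.42 in the naturally born ones. At the probe at 35870075 to 35870134, ICSI-derived replicates 1 to 5 had -1.04, 0.39, 1.39, 0.34 and -1.08 and naturally born replicates 1 to 5 had 1.00, 1.38, 1.03, 1.22 and 0.41. ICSI-derived replicate 3 was the highest of all 10 there, and ICSI-derived replicates 1 and 5 were again lowest. In both cases every naturally born animal was above the pool.

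The same pair was lowest further left, at the probe at 35355774 to 35355833. ICSI-derived replicates 1 to 5 gave -0.74, 0.41, 1.28, 0.74 and -1.13 and naturally born replicates 1 to 5 gave 1.10, 1.25, 1.01, 1.25 and 0.44. In the second window, the probe at 34412460 to 34412519 gave -1.04, 0.13, 0.89, 0.35 and -0.93 in the ICSI-derived and 1.23, 1.11, 0.85, 1.11 and 0.49 in the naturally born animals, in order of replicate. At both, ICSI-derived replicates 1 and 5 were below the pool. At the second, ICSI-derived replicate 3 lay among the naturally born animals, while replicates 2 and 4 were above the pool and below every naturally born animal.

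The leftmost wide-range probe, at 34117148 to 34117207, had -0.59, -0.014, 0.73, 0.22 and -0.54 in ICSI-derived replicates 1 to 5 and 0.61, 1.03, 0.45, 0.89 and 0.40 in naturally born replicates 1 to 5. The lowest pair was again ICSI-derived replicates 1 and 5, over a smaller range of 1.63. A further probe with a large range, at 34524203 to 34524262, was dim. It read -0.80, 0.89, 0.83, 0.76 and -0.84 in the ICSI-derived group and 1.69, 0.64, 0.73, 1.38 and 0.72 in the naturally born group, in order of replicate, but its pool signal was well above background on 2 arrays and its animal signal on 8, all but those of ICSI-derived replicates 1 and 5. The size of its ratios is therefore uncertain.

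A pair of probes in the fourth window ran the other way. The probe at 35407675 to 35407727 was above the pool at 0.47 and 0.40 in ICSI-derived replicates 1 and 2 and at 0.34 and 0.41 in replicates 4 and 5. It was below the pool at -1.21 in ICSI-derived replicate 3 and at -1.32, -0.92, -0.97, -1.14 and -0.67 in naturally born replicates 1 to 5. The groups thus overlapped through ICSI-derived replicate 3 alone. The probe at 35444981 to 35445040 was highest in ICSI-derived replicates 1 and 5 (0.26 and 0.38) and naturally born replicate 5 (0.15), and lowest in naturally born replicate 4 (-1.08) and ICSI-derived replicate 3 (-1.02).

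Near the right end the lowest animal varied from probe to probe. The rightmost wide-range probe, at 37961002, was lowest in ICSI-derived replicate 1 and highest in ICSI-derived replicate 3. Its correlation over the animals with the probe at 36245539 was 0.77. The probe at 37726221 to 37726280 read -0.079, -0.21, 0.45, -1.24 and 0.24 in the ICSI-derived group and 0.047, -0.78, 0.20, 0.35 and -0.23 in the naturally born group, in order of replicate, with ICSI-derived replicate 4 lowest. It was not well above background in the animal's channel on any ICSI-derived array, so these values have no reliable size and the groups are not compared there. At 37831203 to 37831262, a probe singled out after its values were seen, ICSI-derived replicate 4 was also lowest, at -0.84, and naturally born replicate 4 highest, at 0.53.

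**Figure D2:**
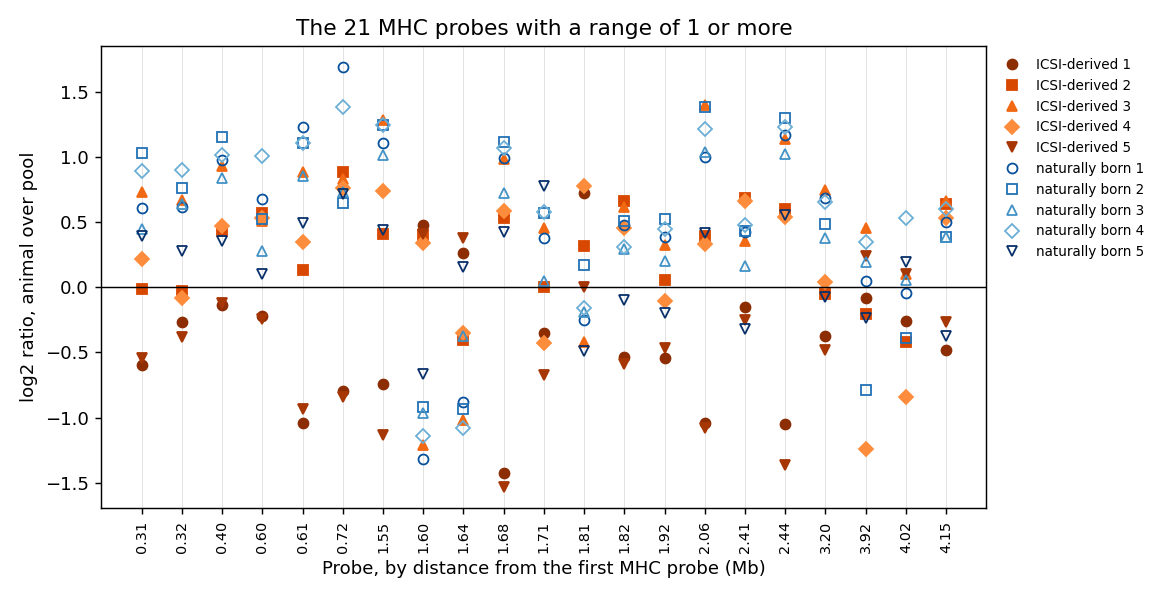
Log2 ratio of animal over pool (vertical axis) in each animal at the 21 MHC probes with a range of 1 or more, ordered by distance from the first MHC probe in Mb (horizontal axis; evenly spaced, not to scale). Filled symbols are ICSI-derived and open symbols naturally born animals. ICSI-derived replicates 1 and 5 are the lowest pair at 13 of the 21 probes.

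The spread lay mainly in the animals' channel. At all 21 probes the Cy5 level, which carries the animal's DNA, varied more between arrays than the Cy3 level of the shared pool. The choice of probes by the range of their ratio, with 1 pool on every array, favours this count. No share over wide-range probes elsewhere was taken for it. Median ranges were 1.37 in Cy5 (0.84 to 2.64) and 0.32 in Cy3 (0.13 to 1.02). At the probe at 36245539 they were 2.62 and 0.24. Over all MHC probes the median Cy3 range was 0.23, the same as over all autosomes, while the median Cy5 range was 0.35, against 0.30 over autosomes.

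ICSI-derived animals varied more among themselves than naturally born ones at 20 of the 21 probes, with median ranges of 1.25 and 0.76. Over all autosomes, too, a range of 1 or more was more frequent within ICSI-derived (0.687% of probes) than within naturally born animals (0.481%). The median SD over all MHC probes was 0.13 within ICSI-derived and 0.11 within naturally born animals, against 0.11 and 0.092 over all autosomes. ICSI-derived replicate 5 was the lowest animal at 10 of the 21 probes and ICSI-derived replicate 1 at 5. ICSI-derived replicate 3 and naturally born replicate 2 were each the highest at 5. The groups overlapped at all 21, and the ICSI-derived mean was the lower one at 17. For the counts in this paragraph no share over wide-range probes elsewhere was taken, so they are not read as particular to the MHC.

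Distant probes sorted the animals alike. Of the 20 other wide-range MHC probes, 12 had a correlation of 0.8 or more with the probe at 36245539 over the 10 animals and 1, the opposite probe at 35444981, had one of -0.8 or less, together 65.0%. The likest were the probes at 35355774, 35489973 and 35870075, with r = 0.99, 0.99 and 0.98. Among 1706 equally wide-range probes on the other autosomes 7 and 17 passed these limits, together 1.41%. The correlations are across 10 animals that share arrays and reference, and describe the pattern. Of the 210 pairs of wide-range MHC probes, 80 had a correlation of 0.8 or more. The share of such pairs among wide-range probes elsewhere was not taken.

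The pair of ICSI-derived replicates 1 and 5, which was picked from these probes, was the lowest at 13 of the 21 (61.9%). It was so at 10 of the 100 wide-range probes on the rest of chromosome 17 and at 23 of 1706 on other autosomes (1.35%). On the rest of chromosome 17, 12 of 100 wide-range probes had a correlation of 0.8 or more with the widest MHC probe. The nearest of them on the left, at 32945776, read -0.18, -0.21, 0.75, -0.13 and -0.47 in the ICSI-derived group and 0.65, 0.65, 0.75, 0.69 and 0.71 in the naturally born group, in order of replicate. The nearest on the right, at 48845441, read -0.16, 0.85, 0.17, -0.062 and -1.08 and 0.70, 0.60, 0.41, 0.27 and 0.31. The widest, at 22218517, read -2.87, 0.69, 1.38, -2.10 and -2.81 and 1.55, 1.48, 1.44, 1.43 and 0.42. ICSI-derived replicate 4, which was above the pool at the probe at 36245539 (0.54), was there at -2.10 with ICSI-derived replicates 1 and 5. These 3 probes were picked after their values were seen.

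Over the 21 probes, the animals fell nearest to each other as follows. The smallest mean absolute difference was 0.174, between ICSI-derived replicates 1 and 5. ICSI-derived replicate 3 was within 0.177 of naturally born replicate 1, 0.185 of replicate 4, 0.232 of replicate 3 and 0.242 of replicate 2, but 1.30 and 1.29 from ICSI-derived replicates 1 and 5. ICSI-derived replicates 2 and 4 lay 0.202 apart. Naturally born replicate 5 was nearest to naturally born replicate 3, at 0.396, and then to ICSI-derived replicate 2, at 0.424. The largest distance, 1.38, was between ICSI-derived replicate 1 and naturally born replicate 4.

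On the 1706 wide-range probes of other autosomes the distance was 0.664 between ICSI-derived replicates 1 and 5, 0.645 between ICSI-derived replicate 3 and naturally born replicate 1, and 0.709 between ICSI-derived replicates 2 and 4. Over all 407 MHC probes ICSI-derived replicate 3 was still nearest to naturally born replicate 1, at 0.115. Its distances to ICSI-derived replicates 2 and 4 were 0.159 and 0.194.

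**Figure D3:**
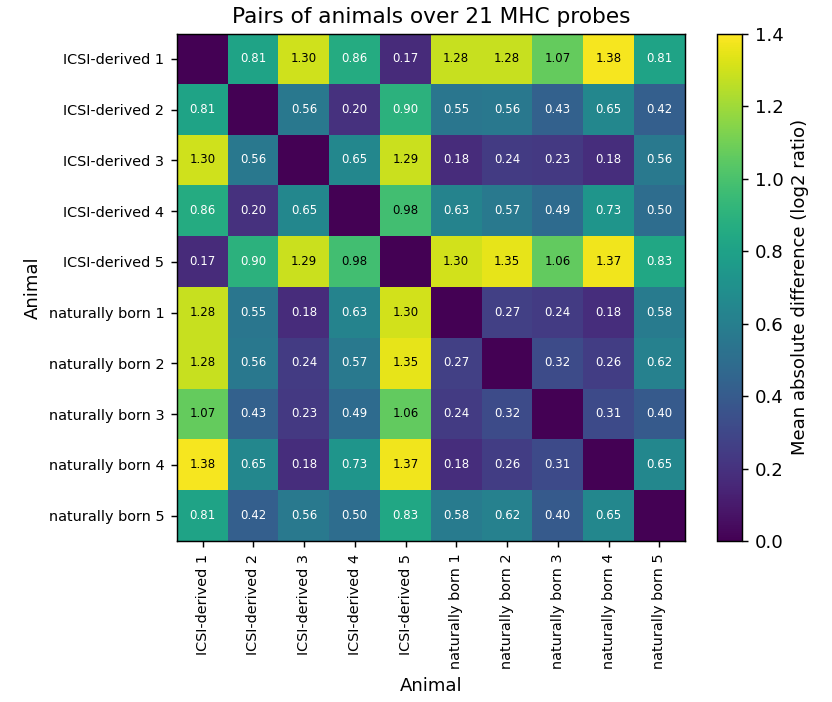
Mean absolute difference in log2 ratio over the 21 wide-range MHC probes for each pair of the 10 animals (rows and columns; colour and printed value). ICSI-derived replicates 1 and 5 (0.17 apart), ICSI-derived replicates 2 and 4 (0.20) and ICSI-derived replicate 3 with naturally born replicates 1 to 4 (0.18 to 0.24) are among the closest pairs.

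The main comparison of the study set ICSI-derived against naturally born animals, to ask whether DNA copy number differed. In the MHC, 0 of 407 probes were called higher and 0 lower in ICSI-derived animals (limma, group and sex in the model, Benjamini-Hochberg over all autosomal probes, adjusted p under 0.05). Over all autosomes 0.0155% of probes were called higher and 0.00434% lower. With no adjustment, 53 MHC probes (13.0%) had a limma p under 0.05, against 3.27% of autosomal probes. Of these 53, 41 were lower in ICSI-derived animals (77.4%) and 12 higher. Of the 5274 autosomal probes at that level, 47.1% were lower. The smallest adjusted p of an MHC probe was 0.226.

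That probe lay at 36364863 to 36364922. It measured 0.0018, 0.12, 0.45, -0.056 and 0.095 in ICSI-derived replicates 1 to 5 and 0.66, 0.56, 0.56, 0.78 and 0.64 in naturally born replicates 1 to 5. Every naturally born animal was above every ICSI-derived one, with ICSI-derived replicate 3 the nearest to them. The means were 0.12 ± 0.20 and 0.64 ± 0.093 (SD, n = 5 each), a difference of -0.52 ± 0.089 (SE).

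At 5 MHC probes (1.23%) the groups did not overlap, against 0.51% of autosomal probes. Besides the one at 36364863, naturally born animals were higher at 34148016 (0.30 ± 0.065 against 0.022 ± 0.13), at 34672058 (0.23 ± 0.12 against -0.030 ± 0.11) and at 36524328 (0.17 ± 0.036 against -0.059 ± 0.12). ICSI-derived animals were higher at 36199712, at 0.18 ± 0.13 against -0.035 ± 0.055 (SD, n = 5 each). The limma adjusted p-values of these 4 lay between 0.848 and 1.00, so none passed the threshold. They are named because their groups did not overlap, and were singled out after their values were seen.

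Leaving out 1 animal changed the calls. Without ICSI-derived replicate 3, limma called 2 MHC probes higher and 7 lower in the remaining ICSI-derived animals, against 0.0291% and 0.0186% of autosomal probes (47 and 30 probes), and leaving out any other single animal gave 0 and 0. The adjusted p-values of the 9 lay between 0.000270 and 0.0492. The calls picked these probes, so their values describe them. At all 9 the other 4 ICSI-derived animals lay apart from the 5 naturally born ones, a separation that the call itself favours. At 7 of the 9, ICSI-derived replicate 3 was within the span of the naturally born animals. Neither count was taken over the other autosomal probes called in this setting, so they are not read as particular to the MHC. Only 2 of the 9, at 34124322 and 35407675, were wide-range probes.

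The strongest of the 9 was the opposite probe at 35407675, with a difference of 1.40 ± 0.11 (SE, limma adjusted p = 0.000270) without ICSI-derived replicate 3. The probe at 34608307 to 34608366 read 0.23, 0.11, -0.42, 0.31 and 0.13 in ICSI-derived replicates 1 to 5 and -0.39, -0.33, -0.55, -0.37 and -0.57 in naturally born ones, a difference of 0.64 ± 0.074 (SE, limma adjusted p = 0.00700) without that animal. ICSI-derived replicates 1, 2, 4 and 5 were above the pool and the other 6 animals below it.

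Lower in the remaining ICSI-derived animals was the probe at 34633027 to 34633076, with -0.098, -0.051, 0.45, -0.17 and 0.020 in ICSI-derived replicates 1 to 5 and 0.49, 0.47, 0.41, 0.41 and 0.40 in naturally born replicates 1 to 5. Its difference was -0.51 ± 0.058 (SE, limma adjusted p = 0.00689). The probe at 36143823 to 36143882 read -0.24, -0.22, 0.46, -0.17 and -0.19 and 0.22, 0.46, 0.55, 0.37 and 0.41 in the same order, with a difference of -0.61 ± 0.069 (SE, limma adjusted p = 0.00634). ICSI-derived replicate 3 was above the pool with the naturally born animals at both, and ICSI-derived replicates 1 and 2 were below it.

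The other 5 were lower in the remaining ICSI-derived animals. Differences without ICSI-derived replicate 3 were -0.82 at 34124322, -0.44 at 36279255, -0.61 at 36364863, -0.53 at 36909217 and -0.45 at 36932849. The 9 probes spanned windows 1, 2, 4, 5, 6 and 7, counted from the left, and none of them lay in the last 2. Within slide 1 alone, which holds 2 animals of each group and not ICSI-derived replicate 3, limma called 1 MHC probe higher, that at 35407675, and 0 lower, against 0.0124% and 0.0105% of autosomal probes. Within slide 2 it called 0 MHC probes higher and 0 lower, against 0.0737% and 0.0663%. At an unadjusted limma p under 0.05 there were 51 MHC probes within slide 1 and 23 within slide 2. No autosomal share was taken for these 2 counts, so they are not read as a result about the MHC.

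Averaged over all 407 probes, the MHC was near the level of the pool in every animal. The mean log2 ratio was 0.0037, 0.00029, 0.045, 0.051 and -0.039 in ICSI-derived replicates 1 to 5 and 0.039, 0.074, 0.030, 0.091 and 0.0059 in naturally born replicates 1 to 5. ICSI-derived animals averaged 0.012 ± 0.037 and naturally born animals 0.048 ± 0.034 (SD, n = 5 each), and the groups overlapped. The difference was -0.036. It was -0.055 within slide 1, -0.013 within slide 2, -0.023 without ICSI-derived replicate 5 and -0.039 without the 3 noisiest arrays. The median difference of single probes was -0.014 over the MHC and -0.00038 over all autosomes.

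None of the 9 windows of 500 kb passed an adjusted p of 0.05 (limma on window means, Benjamini-Hochberg over 4741 autosomal windows), against 0.0211% of autosomal windows. At an unadjusted p under 0.05 limma picked 2 of the 9, against 2.59% of autosomal windows. The sixth window, 36300000 to 36799999 with 32 probes, averaged -0.0054 ± 0.026 (SD, n = 5) for ICSI-derived and 0.052 ± 0.021 (SD, n = 5) for naturally born animals. The difference was -0.058 ± 0.017 (SE, limma unadjusted p = 0.00575, adjusted p = 1.00). Its animals were at 0.0016, -0.031, 0.034, -0.0045 and -0.027 in the ICSI-derived group and 0.047, 0.020, 0.060, 0.075 and 0.060 in the naturally born group, in order of replicate, and ICSI-derived replicate 3 was the one that overlapped the naturally born animals. The sixth window held no wide-range probe.

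The second window, 34300000 to 34799999, differed by -0.075 ± 0.033 (SE, limma unadjusted p = 0.0442, adjusted p = 1.00). Its means were 0.0061 ± 0.059 (SD, n = 5) for ICSI-derived and 0.081 ± 0.058 (SD, n = 5) for naturally born animals. The first window, with 52 probes, differed by -0.067, the fifth by -0.057 and the seventh by -0.050. The fourth window, richest in wide-range probes, differed by -0.030 and the third by -0.0033. The last 2 windows differed by 0.0057 and 0.0070, so the ICSI-derived mean was lower in the first 7 windows and higher in the last 2. Of the 9, the second window had the largest difference in size.

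**Figure D4:**
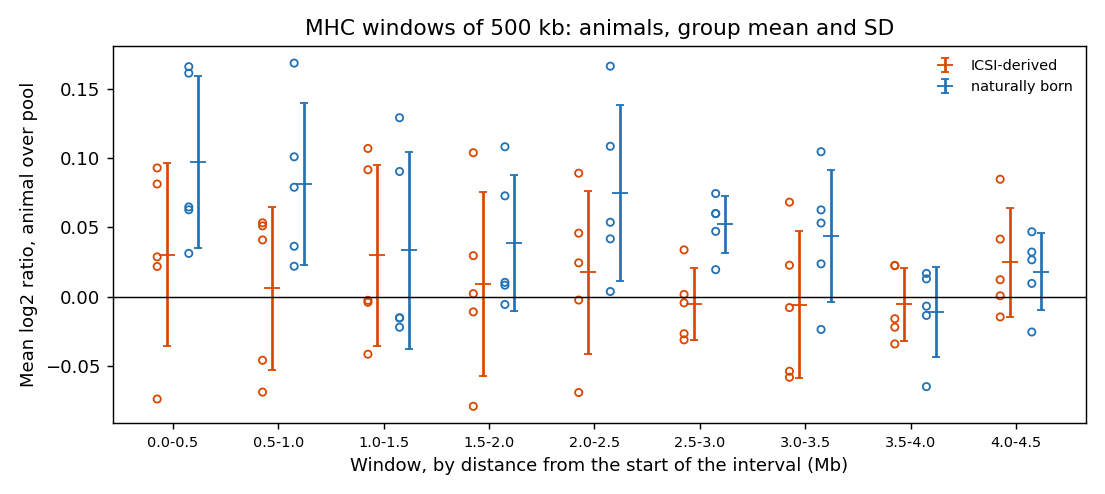
Mean log2 ratio of animal over pool (vertical axis) in the 9 windows of 500 kb, by distance from the start of the interval in Mb (horizontal axis). Circles are animals, and the horizontal and vertical bars are the mean and SD of the 5 animals of each group. ICSI-derived means lie below naturally born ones in the first 7 windows, and the groups overlap in all 9.

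Segmentation looked for stretches of 5 or more neighbouring probes at 1 level, at least 0.25 from 0 after single probes far from their neighbours were drawn in (the means below are of the values as measured). It found 4 segments in the MHC, all in naturally born animals. Over all autosomes it found 131 in the 5 ICSI-derived and 140 in the 5 naturally born animals. Naturally born replicate 4 had one of 10 probes at 0.45, from 34117148 to 34226193 (109 kb), which was not called with normexp background correction. The other 3 overlapped each other in the fourth window: 6 probes at -0.57 in naturally born replicate 1 (35387186 to 35445040), 7 at -0.44 in replicate 2 (35387186 to 35459682) and 5 at -0.58 in replicate 4 (35407675 to 35459682). Without naturally born replicate 4 there were 2 segments. The number also fell with stricter settings, to 0 at a penalty factor of 6 in place of 3, to 2 at a threshold of 0.4 and to 1 with at least 10 probes.

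The absence of a call in an animal does not set its level. Both stretches were set by segments called in naturally born animals, high in the first stretch and low in the second. That choice favoured group differences in the same directions, so those given below describe these probes and carry no test. Over the 10 probes of the first stretch, ICSI-derived replicates 1 to 5 averaged -0.14, 0.053, 0.28, 0.12 and -0.24 and naturally born replicates 1 to 5 averaged 0.23, 0.45, 0.23, 0.45 and 0.037. Naturally born replicate 2, with no segment there, was at the level of replicate 4. The groups overlapped, with means of 0.015 ± 0.21 and 0.28 ± 0.17 (SD, n = 5 each), a difference of -0.26. Of the 10 probes 3 were wide-range ones, and without them the difference was -0.10.

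Over the 7 probes of the second stretch, ICSI-derived replicates 1 to 5 averaged 0.27, -0.28, -0.46, -0.17 and 0.18 and naturally born replicates 1 to 5 averaged -0.52, -0.44, -0.25, -0.45 and 0.0086. ICSI-derived replicates 2, 3 and 4 were below the pool with naturally born replicates 1 to 4, and the other 3 animals were above it. Means were -0.093 ± 0.31 and -0.33 ± 0.21 (SD, n = 5 each), a difference of 0.24. The 2 opposite probes at 35407675 and 35444981 lay in it, and without them the difference was 0.034. Naturally born replicates 1, 2 and 4, which had segments there, then averaged -0.28, -0.24 and -0.18 over the stretch. The stretch difference also fell to 0.15 without ICSI-derived replicate 1. Neighbouring probes inside both stretches did not share 1 level: in the first, naturally born replicate 4 read 0.89 at the first probe and 0.0061 at the fifth.

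**Figure D5:**
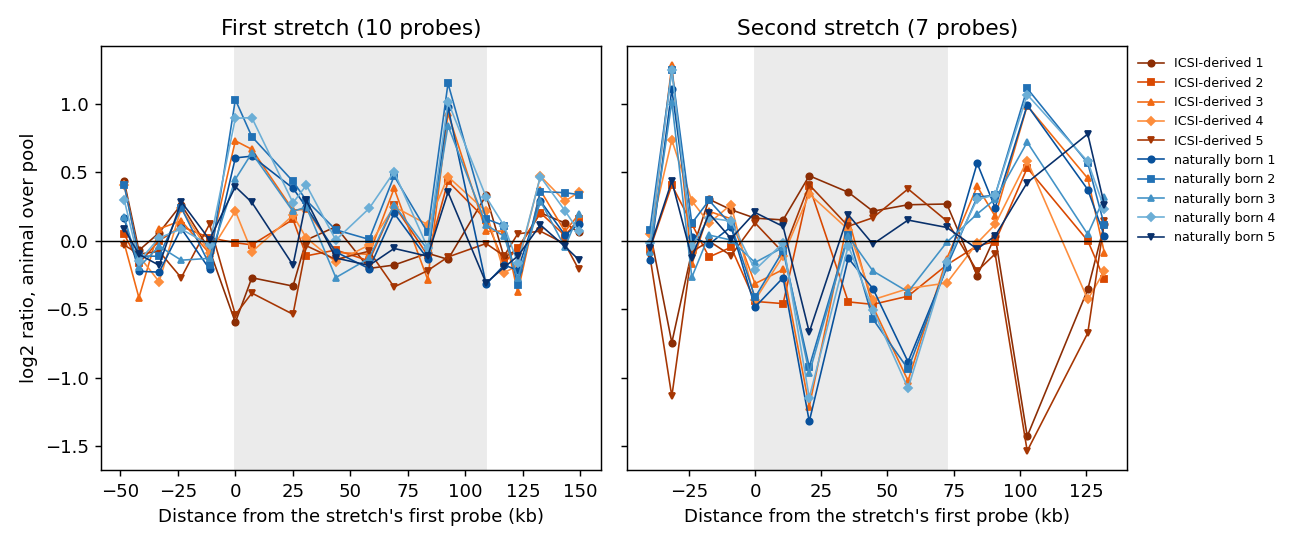
Log2 ratio of animal over pool (vertical axis) at each probe in and around the 2 stretches with a segment call, by distance from the stretch's first probe in kb (horizontal axis). Each line is 1 animal and the grey band marks the stretch (10 probes, 109 kb, on the left and 7 probes, 72.5 kb, on the right). At the probe 20.5 kb into the second stretch the animals lie between -1.32 and 0.47.

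Against the pool, over all 10 animals, 15 MHC probes were above it (3.69%) and 8 below (1.97%; limma, mean of at least 0.25 in size, adjusted p under 0.05 over all autosomal probes). Over all autosomes 3.5% of probes were above the pool and 1.71% below, so the MHC shares were close to the background. Without ICSI-derived replicate 5, 28 MHC probes were above the pool (6.88%), against 3.8% of autosomal probes. With normexp background correction 47 were above (11.5%) and 11 below (2.7%), against 8.81% and 2.42%.

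Of the 15 probes above the pool 5 were wide-range ones, and of the 8 below it 1 was, at 35444981. The 15 include the dim probe at 34524203, whose size is uncertain. Among called probes well above background on every array, the largest mean was 0.59 ± 0.12 at 34209579 to 34209638 (SE, n = 10, limma adjusted p = 0.00115). That probe read -0.14, 0.43, 0.93, 0.47 and -0.12 in the ICSI-derived group and 0.97, 1.15, 0.84, 1.02 and 0.35 in the naturally born group, in order of replicate, and 8 of the 10 were above the pool.

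The probe at 35621243 to 35621302 differed from these in that all 10 animals were above the pool. It read 0.30, 0.61, 0.63, 0.91 and 0.014 in ICSI-derived replicates 1 to 5 and 0.54, 0.88, 0.47, 0.76 and 0.16 in naturally born replicates 1 to 5, a mean of 0.53 ± 0.077 (SE, n = 10, limma adjusted p = 0.000116). The groups overlapped almost fully there, at 0.49 ± 0.34 and 0.56 ± 0.28 (SD, n = 5 each). Its neighbours, 7.59 kb to the left and 6.62 kb to the right, were both wide-range probes, with ranges of 1.27 and 1.25.

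The most even of the called probes lay at 36273394 to 36273445. It read 0.45, 0.31, 0.27, 0.48 and 0.43 in ICSI-derived replicates 1 to 5 and 0.27, 0.33, 0.35, 0.36 and 0.40 in naturally born replicates 1 to 5, a range of 0.21 around a mean of 0.37. Every animal was above the pool there. This probe was singled out after its values were seen. Means of 3 of the widest probes, at 36245539, 35870075 and 35407675, were 0.51, 0.50 and -0.46 and did not pass the test (limma adjusted p = 0.0923, 0.0855 and 0.0635). Animals lay on both sides of the pool at all 3.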

How the data were processed

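Each animal's array came as a deposited scanner file of 2-colour spot intensities. Per the file headers, Feature Extraction 10.7.3.1 subtracted the background and normalised the dyes to give the processed intensities. A deposited value table holds log10 ratios that equal those in the scanner files, and served, turned to log2, as an alternative. The submitters' processing notes name Partek 6.5. The headers of 6 arrays name mm9, and all 10 carry the same coordinates.

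Control spots were left out, spots of a probe averaged, and log2 ratios of Cy5 over Cy3 centred on each array's autosomal median, with no loess or quantile step. R 4.3.3 with limma 3.58.1 tested single probes and means of 500 kb windows (group and sex; two-sided; Benjamini-Hochberg over all autosomes). Profiles were split by optimal partitioning (penalty factor 3). The probe test and the segmentation were tried on simulated data with independent, normally distributed noise. That setting is simpler than these arrays, so it does not give their accuracy here. Other steps ran in Python 3.11.15 (pandas 2.3.3, numpy 2.4.6, numba 0.67.0).

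The members, the lists and the tests were chosen with earlier results of these data known. Named by rule were all windows, probes called between the groups, the 10 probes with the largest mean and the 10 with the largest range, segments and border probes; any other probe was picked once its values were known. The 10 arrays limit precision. The labels give replicates as biological, and separate animals were not tested for. No probe sequence is printed, since neither probe sequences nor a genome of this build were used here.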

Additional observations from a re-analysis of the deposited data

Results flagged for a closer look

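In groups of 5 animals, 2 of 50 sets of values held 1 animal far from the other 4 by Dixon's criterion; chance gives about 1 in 20. At the probe at 35355774, naturally born replicate 5 was lowest at 0.44, against 1.01 to 1.25 in the rest of its group. At the probe at 35407675, ICSI-derived replicate 3 was lowest at -1.21, against 0.34 to 0.47 in the rest of its group. Its value was within the span of the naturally born animals there.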

How the results depend on the processing

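Calls between the groups stayed at 0 higher and 0 lower under loess, normexp, centring on all probes, the deposited table, both spot filters, array weights, a slide block, a model without sex, and leaving out the 3 noisiest arrays. Within slide 1 there was 1 higher call, and leaving out each animal gave 0 to 2 higher and 0 to 7 lower. Samples with the same replicate number, which also share a slide, had correlations of their deviations of 0.047, -0.28, 0.10, -0.0060 and 0.15. Whether these animals were matched by design cannot be read from these values. With a replicate block the calls were 0 and 0 and the difference of the MHC mean -0.036. Leaving out each animal, that difference lay between -0.046 and -0.023, and called windows stayed at 0. Probes above the pool numbered 47 with normexp, 4 at a minimum mean of 0.5, and 10 to 28 leaving out each animal. Those below numbered 0 at a minimum of 0.5 and 6 to 11 leaving out each animal. Wide-range probes numbered 122 at a minimum of 0.5, 9 at 1.5 and 20 to 21 leaving out each animal. They numbered 22 with centring on all probes, 19 with normexp and 17 without the 3 noisiest arrays. Among probes well above background on every array there were 19. Segments numbered 0 at a penalty factor of 6, 1 with at least 10 probes, 2 at a threshold of 0.4 and 2 to 4 leaving out each animal. The stretch differences without wide-range probes or single animals were alternatives chosen after seeing the data, and ranged from -0.33 to -0.20 and from 0.15 to 0.33 leaving out each animal. The cause of these shifts was not tested. With 5 animals a group and probes about 10 kb apart, short stretches and small differences can be missed.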
